A study of Caenorhabditis elegans with 36 samples.

Results

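Small RNAs were counted at linc-22 (WBGene00219699) and linc-11 (WBGene00219758), 2 long intergenic noncoding RNA genes of Caenorhabditis elegans, in young adults and in early embryos. They were 2 of 46739 gene rows in the embryo tables and 2 of 31003 in the adult table. Both were chosen by their measured counts, which were high in small RNA that came down with the Argonaute NRDE-3 in wild-type (wt) embryos. The levels in immunoprecipitate (IP), against input or between strains, are therefore given as a description, with no test.

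NRDE-3 is the somatic nuclear Argonaute of C. elegans. It binds 22G-RNAs, short antisense RNAs made by RNA-dependent RNA polymerases, carries them into the nucleus and acts there with other nuclear RNAi factors to silence transcripts of matching sequence. In embryos much of its cargo is made downstream of 26G-RNAs, which are bound by the Argonaute ERGO-1 and arise at a limited set of poorly conserved, often duplicated loci and at some noncoding loci.

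The study examined candidate factors, named nip1, nip2 and nip3 in the labels, for the inheritance of silencing across generations. Animals fed on HB101 at 20 degrees. The adult small RNA libraries came from whole young adults, with 2 libraries of wt, 3 of nip2nip3 and 3 of nip3_qe17. The embryo libraries came from mixed early stages, with 2 inputs and 2 IPs each of wt and of a strain labelled nipnip2. The IP was made with anti-FLAG M2 from animals with FLAG-tagged NRDE-3, in wt and mutant alike. The label of 1 wt input library names whole animal as its source and gives no tag. The data columns call the nipnip2 libraries nip1nip1_1 and nip1nip2_2. The labels tie no nip name to a gene and name no allele for these small RNA libraries other than qe17, and an IP from animals without the tag was not analysed here. Whether libraries of a group are separate cultures is not stated, and the spread behind each p-value may be technical. In whole animals, fewer cells with a small RNA and less of it per cell cannot be told apart.

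Counts over all gene rows summed to 6362077 to 10962202 in the adult libraries, 1149366 to 2200655 in the inputs and 2957435 to 5956980 in the IPs. A count is a sequenced small RNA assigned to a gene row, so a value at a protein-coding gene is small RNA and not messenger RNA. Shares are percentages of these sums, and CPM is counts per 1000000 of them. Reads in overlapping rows were counted in each of them, so the sums hold some reads more than once.

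linc-22 lies on chromosome X at 9069138 to 9073735 of WBcel235, the assembly that ce11 names, and spans 4598 bases. linc-11 lies on chromosome II at 3373169 to 3374185 and spans 1017 bases. Both are annotated as long noncoding RNA. The span of linc-22 also holds the small nucleolar RNA row F47E1.19 and the 21U-RNA rows 21ur-15566 and 21ur-9719, each with at most 3.08% of the linc-22 counts in any library. The span of linc-11 holds 21ur-8285 and 21ur-14793. 21U-RNAs are the piRNAs of C. elegans, bound by the Argonaute PRG-1 in the germline. The strand of the counting is not given, so reads on the 2 strands of a locus cannot be told apart.

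**Figure D1:**
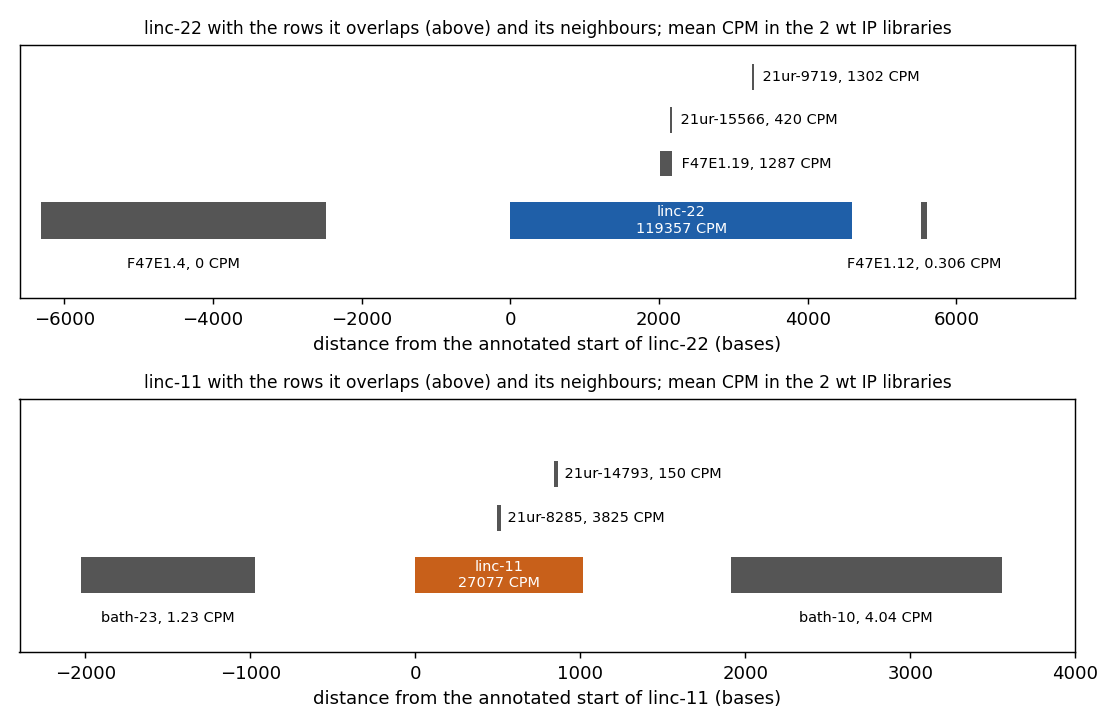
Annotated rows at linc-22 (top) and linc-11 (bottom), drawn by distance in bases from the annotated start of each, with the mean CPM of the 2 wt IP libraries. linc-22 stands at 119357 CPM and linc-11 at 27077 CPM, while the nearest rows outside them stand at 0 to 4.04 CPM.

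Just outside both loci the IP held little or no small RNA. F47E1.4, a protein-coding gene that ends 2475 bases before linc-22, had 0 counts in all 4 IP libraries, which allows at most 3 counts in each. F47E1.12, a noncoding RNA 927 bases after linc-22, had 0.306 CPM on average in wt IP although it had 175.6 CPM in wt input. Beside linc-11, bath-23, an annotated pseudogene of the MATH and BTB domain family, lies 975 bases before and had 1.23 CPM in wt IP. bath-10, a protein-coding member of that family, lies 893 bases after and had 4.04 CPM there. In nipnip2 IP both were higher, with 4.38 CPM at bath-23 and 27.5 CPM at bath-10, while F47E1.12 had 0.288 CPM. No other row of any table had the same counts as linc-22 or linc-11.

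In wt embryos linc-22 held more small RNA than any other gene row. It took 12.1% and 11.7% of all gene counts in the 2 wt IP libraries and 7.44% and 5.98% in the 2 wt inputs. It ranked first in all 4. In nipnip2 it took 5.83% and 8.47% of the IP and 1.59% and 2.42% of the input. Both nipnip2 values lay below both wt values in the IP, and likewise in the input. The exact (Clopper-Pearson) 95% interval of the lowest of these shares, 1.59%, runs from 1.57% to 1.61%. Such intervals cover counting error only and were far narrower than the distance between libraries.

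linc-11 was lower and followed the same order of groups. It held 2.58% and 2.84% of the wt IP, 0.956% and 0.551% of the wt input, 1.56% and 1.56% of the nipnip2 IP, and 0.214% and 0.247% of the nipnip2 input. The nipnip2 values again lay below the wt values in IP and in input. Its rank was 7 or 8 in wt IP, 17 or 18 in nipnip2 IP, 20 to 26 in wt input and 47 to 53 in nipnip2 input.

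**Figure D2:**
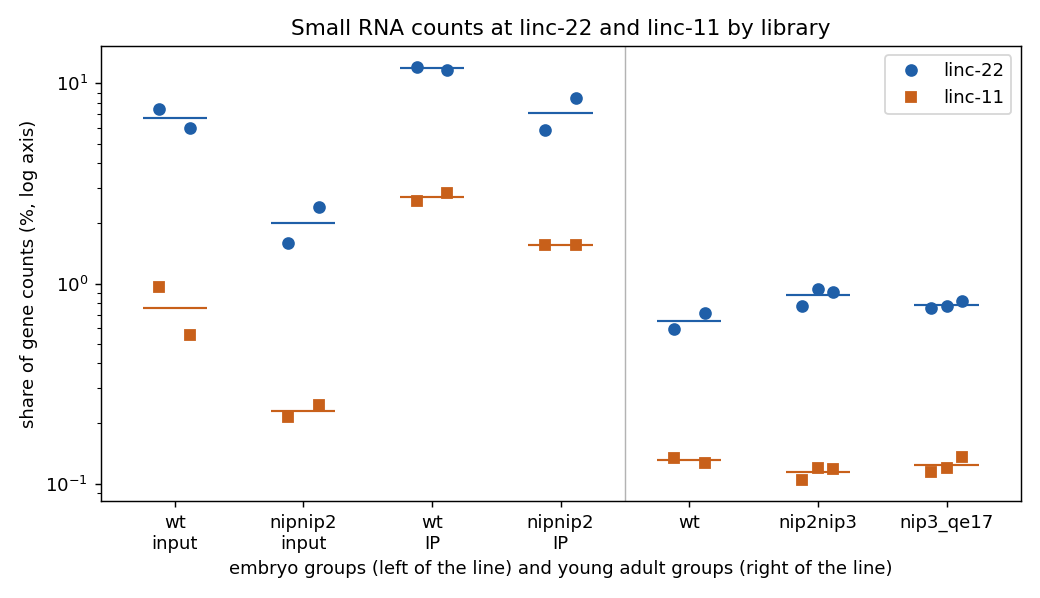
Share of gene counts (%, log axis) at linc-22 (circles) and linc-11 (squares) in each library, with group means as lines. linc-22 is highest in wt IP (mean 11.9%) and lowest in adults (0.592 to 0.943%). The nipnip2 points lie below the wt points for both loci in input and IP.

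Per kilobase of annotated span the 2 loci were alike in the wt IP. The level was 25958 ± 612 CPM per kilobase at linc-22 and 26625 ± 1819 at linc-11 (SD, n = 2), and the ranges overlapped. In wt input linc-22 was higher, at 14586 ± 2244 against 7409 ± 2812 CPM per kilobase (SD, n = 2), and the ranges did not overlap. In adults wt had 1420 ± 186 and 1286 ± 49.6 CPM per kilobase (SD, n = 2), again with overlap.

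linc-22 stood apart from the rows below it by more than their spread. In wt IP its mean share was 11.9% ± 0.281 (SD, n = 2). The next rows were WBGene00045366 at 7.82%, WBGene00018199 at 3.90% and E01G4.5, a protein-coding ERGO-1 target, at 3.65%. The first 2 carry no symbol in the tables used. linc-11, at 2.71% ± 0.185 (SD, n = 2), sat among rows whose levels did not differ from it beyond their spread, namely Y46H3C.7 at 2.80%, WBGene00045410 at 2.68% and mir-260, an annotated microRNA gene, at 2.64%. Among the 168 other linc genes in the embryo tables, the highest in wt IP was linc-16 at 1.77%, and all of these genes together came to 4.95%. In adults linc-29 exceeded linc-22, with 1.30% against 0.653% in wt.

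The highest level in the IP was not the same as the highest ratio of IP to input, although both loci had ratios far above the median. In wt the share of linc-22 was 1.78 times higher in IP than in input, and 152nd of 4080 rows by that ratio. The ratio of linc-11 was 3.59, the 27th highest. The median ratio over these rows, which averaged at least 20 counts, was 0.0474. In nipnip2 the ratios were 3.57 for linc-22 and 6.77 for linc-11, ranking 100 and 22 of 4284 rows with a median of 0.0749. So the name of top cargo holds by level for linc-22. linc-11 came seventh by mean level, and neither led by ratio.

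These ratios depend on what the counts are divided by. Divided by summed microRNA counts, the log2 ratio of IP to input at linc-22 was negative, at -0.51 in wt and -0.26 in nipnip2, and that of linc-11 stayed positive, at 0.49 and 0.64. MicroRNA rows held 2.66 to 4.35% of the IP and 0.587 to 1.36% of the input. Most of that was 1 row, mir-260, which ranked 9 in wt IP. It held 1.75% and 3.53% of wt IP and 2.04% and 2.28% of nipnip2 IP. In input it held 0.907% and 0.790% in wt and 0.358% and 0.443% in nipnip2. MicroRNA scaling in embryos therefore leans on that row.

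The mutant was compared with wt in input and in adults by edgeR's quasi-likelihood test. TMM set the scaling, p-values were adjusted by Benjamini-Hochberg over all tested rows, and a call needed an adjusted p under 0.05. The members were chosen for a high wt IP level, which makes a lower value elsewhere more likely. In embryo input 6.38% of 8505 tested rows were called, 1.28% higher and 5.1% lower. Both loci were among the lower. linc-22 had 90524 and 72948 TMM-scaled CPM in wt and 12368 and 20957 in nipnip2, a log2 change of -2.29 (SE 0.34, 95% interval -3.07 to -1.52, edgeR adjusted p = 0.0050). linc-11 had 11634 and 6729 in wt and 1665 and 2138 in nipnip2, a log2 change of -2.27 (SE 0.30, interval -2.95 to -1.59, edgeR adjusted p = 0.0030). Both remained called with library totals, at -1.74 and -1.71, and with microRNA scaling, at -0.82 and -0.75.

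In the IP 33.4% of 2619 tested rows were called, 10% higher and 23.4% lower. In TMM-scaled CPM linc-22 had 228167 and 235353 in wt and 29097 and 45023 in nipnip2, and linc-11 had 48454 and 56919 in wt and 7780 and 8293 in nipnip2. The log2 difference was -2.64 at linc-22 (SE 0.14) and -2.71 at linc-11 (SE 0.17). Since the wt IP values chose the 2 loci, no p is given for them. The size depended on the scaling and on the filter. With library totals the log2 differences were -0.74 and -0.80, and with microRNA scaling -0.57 and -0.60. With TMM over the 519 rows that averaged at least 50 counts they were -0.88 and -0.94. All these values lay below 0.

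The TMM factors were 0.499 and 0.532 in wt IP and 1.88 or above in nipnip2 IP. The median log2 change of all tested IP rows was 0.19 with TMM, 2.09 with library totals and 2.33 with microRNA scaling. It was 0.06 with TMM over the 519 rows. Both loci lay below the median in each case. Of the IP calls 29.9% were higher with TMM, 59.2% with TMM over the 519 rows, 93.2% with library totals and 97.1% with microRNA scaling. In the input the corresponding shares were 20.1%, 83.4% and 98.4%, and the medians 0.00, 0.58 and 1.53.

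**Figure D3:**
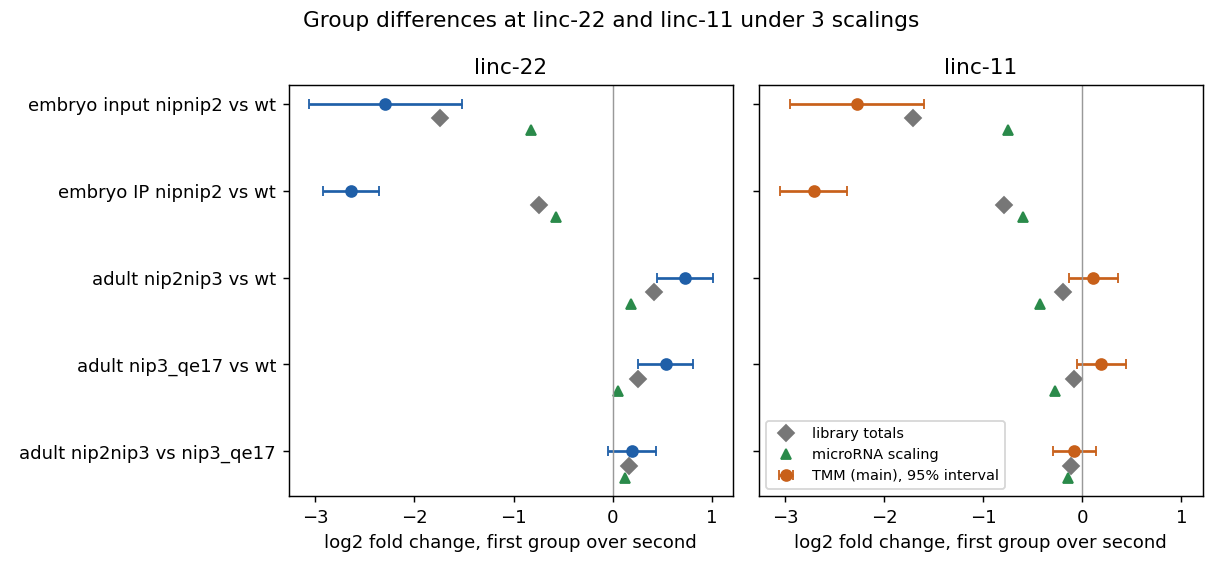
Log2 fold changes at linc-22 (left) and linc-11 (right) in 5 comparisons, with TMM scaling and its 95% interval (circles), library totals (diamonds) and microRNA scaling (triangles). The IP values are a description, since wt IP chose the loci. In embryos every point lies below 0, and the IP values move from -2.64 and -2.71 to -0.57 and -0.60. In adults linc-11 crosses 0 between scalings.

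Ratios between rows of a library need no scaling. In wt IP linc-22 had 3.37 and 3.18 counts for each count of E01G4.5, and in nipnip2 IP 0.958 and 1.67. Against WBGene00045366 the values were 1.72 and 1.36 in wt and 0.664 and 0.989 in nipnip2. The groups did not overlap in either case. linc-11 had 0.716 and 0.768 counts per count of E01G4.5 in wt IP and 0.256 and 0.307 in nipnip2. By share, E01G4.5 stood at 3.65% of the wt IP and 5.59% of the nipnip2 IP, WBGene00045366 at 7.82% and 8.67%, and Y46H3C.7 at 2.80% and 4.28%. F39E9.10, another long noncoding RNA, ranked 10 in wt IP, had 2.31% and 1.43%.

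The IP difference minus the input difference was -0.22 at linc-22 (SE 0.49) and -0.31 at linc-11 (SE 0.45), again without a p because it holds the wt IP values. Over all rows edgeR called 0.876% of 9248, 0.0541% higher and 0.822% lower. The sign turned with library totals, at 1.003 for linc-22 and 0.91 for linc-11, so which of input and IP was lowered more cannot be stated.

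In adults both loci held far smaller shares. linc-22 took 0.592% and 0.713% of the wt libraries, 0.769%, 0.943% and 0.905% of nip2nip3, and 0.752%, 0.775% and 0.813% of nip3_qe17. Every mutant value lay above both wt values. linc-11 took 0.134% and 0.127% of the wt libraries, 0.104%, 0.120% and 0.118% of those of nip2nip3, and 0.114%, 0.119% and 0.136% of those of nip3_qe17. The nip2nip3 values lay below both wt values, and the nip3_qe17 values overlapped them. Stage, table and strain differ together between adults and embryos, so those levels are only set side by side.

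In nip2nip3, 43.2% of 16585 tested rows were called, 21.9% higher and 21.3% lower. linc-22 had 5136 and 6048 TMM-scaled CPM in wt and 8462, 9704 and 9651 in nip2nip3. It rose, with a log2 change of 0.73 (SE 0.13, interval 0.45 to 1.01, edgeR adjusted p = 0.0011). In nip3_qe17, 37% were called, 17.8% higher and 19.1% lower. linc-22 had 8352, 7851 and 8132 TMM-scaled CPM there and rose, with a log2 change of 0.54 (SE 0.12, interval 0.26 to 0.81, edgeR adjusted p = 0.0068). Both comparisons use the same 2 wt libraries. With so many rows called, a call says little by itself. With library totals the change in nip2nip3 was 0.42 and still called, and that in nip3_qe17 was 0.26 (edgeR adjusted p = 0.19), no longer called. With microRNA scaling they were 0.19 (edgeR adjusted p = 0.32) and 0.06 (edgeR adjusted p = 0.77), neither called. Without wt replicate 1 the nip3_qe17 change was 0.43 (edgeR adjusted p = 0.074), not called.

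For linc-11 in adults no change passed the test. The log2 difference was 0.11 in nip2nip3 (SE 0.11, interval -0.13 to 0.36, edgeR adjusted p = 0.44) and 0.19 in nip3_qe17 (SE 0.11, interval -0.05 to 0.44, edgeR adjusted p = 0.21). With microRNA scaling the signs turned, to -0.43 (edgeR adjusted p = 0.020) and -0.28 (edgeR adjusted p = 0.11). Between the mutants, where 4.19% of rows were called (2.72% higher and 1.47% lower), nip2nip3 minus nip3_qe17 was 0.19 at linc-22 (interval -0.05 to 0.44, edgeR adjusted p = 0.39) and -0.08 at linc-11 (interval -0.30 to 0.14, edgeR adjusted p = 0.71). Library totals moved the median of all rows from 0.05 to -0.27 in nip2nip3 and from 0.01 to -0.26 in nip3_qe17. They moved the share of calls that were higher from 50.8% to 27.3% and from 48.2% to 26.7%. MicroRNA scaling gave medians of -0.49 and -0.46 and shares of 17.4% and 16.5%.

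Other adult features moved with these groups. With TMM all 30 tested genes of major sperm proteins, the abundant cytoskeletal proteins of nematode sperm, were higher in both mutants. Of all rows 21.9% were higher in nip2nip3 and 17.8% in nip3_qe17. The sperm protein medians of 1.67 and 1.44 stayed positive under each scaling. With library totals 29 and 28 of the 30 were higher, against 2234 and 1834 of all 16585 rows. With microRNA scaling 27 were higher in each mutant, against 1547 and 1374 of all rows. Their summed share was 0.0152 to 0.0190% in wt, 0.0400 to 0.0497% in nip2nip3 while nip3_qe17 had 0.0376 to 0.0421%, with none of 31 rows at 0. The 6 vitellogenin (yolk protein) rows summed to 0.00178 to 0.00323% over all adult libraries. The part of these in the linc-22 values was not tested. In embryo input 0 of 14 tested sperm protein genes were called by edgeR, against 6.38% of all rows. Their summed share was 0.00451 and 0.0112% in wt and 0.0223 and 0.00957% in nipnip2, with 1 to 4 of 31 rows at 0, and all vitellogenin rows were at 0.

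The ratio of linc-22 to linc-11 within a library sets the loci against each other without scaling. Adult wt had 4.41 and 5.61, nip2nip3 had 7.42, 7.85 and 7.66, and nip3_qe17 had 6.57, 6.49 and 5.96. The 3 groups did not overlap. Exact two-sided permutation tests gave p = 0.2 for each mutant against wt and p = 0.1 between the mutants, the smallest these group sizes allow, and 0.4 after Benjamini-Hochberg adjustment over 10 tests of 2 ratios in 5 comparisons. In embryos the ratio was 7.78 and 10.8 in wt input, 7.43 and 9.80 in nipnip2 input, 4.71 and 4.13 in wt IP, and 3.74 and 5.43 in nipnip2 IP. There wt and mutant overlapped in both fractions (exact permutation p = 0.67 and 1, smallest possible 0.33).

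**Figure D4:**
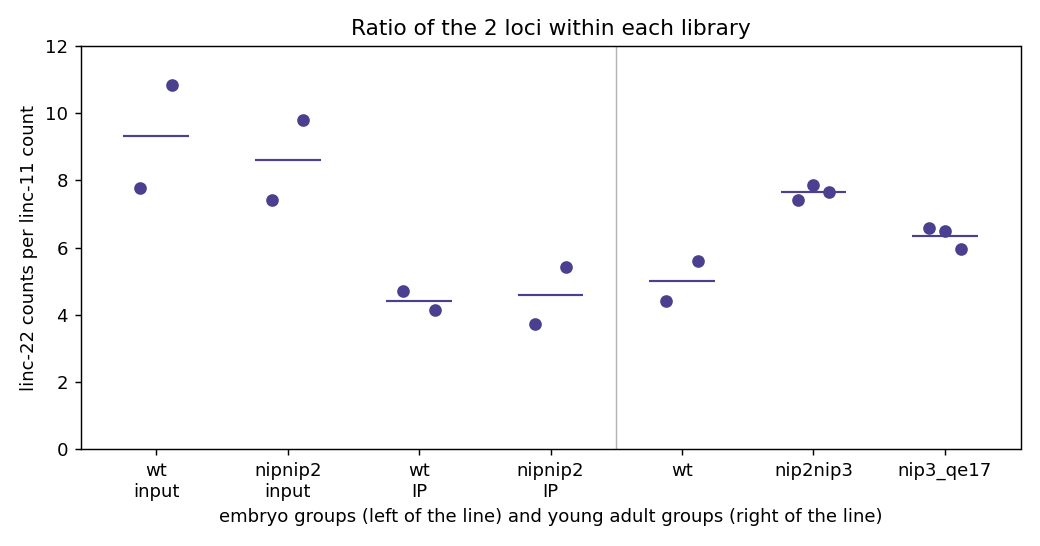
linc-22 counts per linc-11 count in each library, with group means as lines. Embryo inputs lie between 7.43 and 10.8 and embryo IPs between 3.74 and 5.43. Adult wt (4.41 and 5.61), nip3_qe17 (5.96 to 6.57) and nip2nip3 (7.42 to 7.85) do not overlap.

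The 21 bases of 21ur-8285 held a large part of the linc-11 counts. The overlap a read needed to be counted is not given, so reads that only partly cover these bases may be among them. The row made up 53.1% and 50.3% of linc-11 in adult wt, 49.3 to 52.5% in nip2nip3 and 46.7 to 49.5% in nip3_qe17. It made up 31.1% and 27.2% in wt input, 33.0% and 32.1% in nipnip2 input, 14.7% and 13.6% in wt IP, and 14.8% and 14.7% in nipnip2 IP. Adult, input and IP libraries did not overlap. Within adults nip3_qe17 lay below wt (exact permutation p = 0.2, the smallest possible). For nipnip2 against wt in input, the exact permutation test gave p = 0.33, the smallest possible. In IP the 2 groups overlapped, and no p is given because wt IP chose linc-11. The share of 21ur-8285 was 1.71 times higher in wt IP than in wt input, and that of the rest of linc-11 4.39 times. In nipnip2 the ratios were 3.07 and 8.55. Without the 21ur-8285 counts, an alternative chosen after the overlap was seen, the linc-11 change was -2.33 in input (edgeR adjusted p = 0.0023), and the difference in IP was -2.72.

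**Figure D5:**
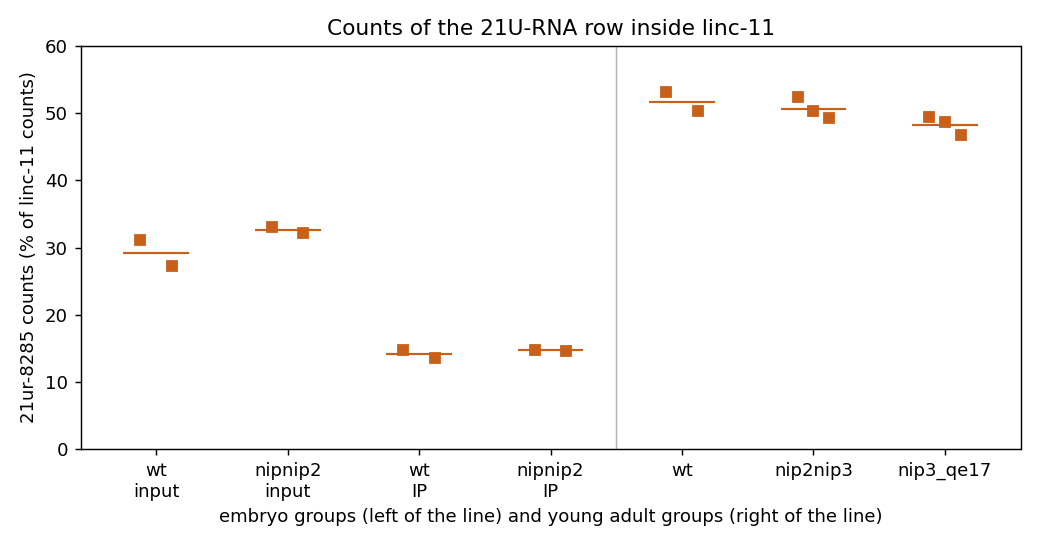
Counts of the 21U-RNA row 21ur-8285 as a percentage of linc-11 counts in each library, with group means as lines. Adult libraries lie between 46.7 and 53.1%, embryo inputs between 27.2 and 33.0% and embryo IPs between 13.6 and 14.8%.

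The rows flanking linc-11 were not called in embryo input. bath-23 had a log2 change of -0.01 in input (edgeR adjusted p = 0.99) and bath-10 one of 0.17 (edgeR adjusted p = 0.79). F47E1.12, next to linc-22, fell by 2.12 in input (edgeR adjusted p = 0.015). In adults bath-23 rose by 0.98 and 0.74 (edgeR adjusted p = 0.00012 and 0.00079) and bath-10 was lower, at -0.56 and -0.60 (edgeR adjusted p = 0.027 and 0.021), in nip2nip3 and nip3_qe17 in that order. F47E1.12 rose by 1.21 and 1.04 (edgeR adjusted p = 0.00066 and 0.0019).

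Rows most like each locus were found by Pearson correlation of log2 share (in CPM, plus 1) over the 16 small RNA libraries, among 3947 rows that averaged at least 20 counts in adults and in embryos. Much of such likeness comes from the distance between adults, input and IP that all rows share. Nearest to linc-22 were Y17D7C.6 (r = 0.992), W04B5.6, linc-24, WBGene00021019 and E02H9.6 (r = 0.991). Nearest to linc-11 were linc-8 (r = 0.991), linc-24 (r = 0.989), 21ur-9823, its own inner row 21ur-8285 and fbxa-24, an F-box gene (r = 0.984). The 2 loci correlated at r = 0.971, which placed linc-11 28th for linc-22 and linc-22 15th for linc-11. These rows were found with the mutant and wt libraries, so their differences are given without a test. In the IP linc-8 had -2.64 and linc-24 -2.88 on the log2 scale, and E02H9.6 and W04B5.6 had -3.72 and -3.73. Over the 519 rows that averaged at least 50 counts the values were -0.88, -1.12, -1.94 and -1.94.

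Other long intergenic noncoding genes gave a mixed picture. Among the linc genes besides these 2, 14 of 38 tested were lower in nipnip2 input and 22 of 29 in the IP, against 5.1% and 23.4% of all rows. None was higher by edgeR, and the medians were -0.54 and -1.84. Over all tested rows the medians were 0.00 and 0.19. With library totals the linc medians were 0.05 and 0.08, with 6 higher and 12 lower in input and 8 higher and 10 lower in IP. Over all rows that scaling gave medians of 0.58 and 2.09. It called 1458 of 8505 input rows higher and 290 lower, and 2027 of 2619 IP rows higher and 149 lower. With microRNA scaling the linc medians were 1.02 and 0.26, against 1.53 and 2.33 over all rows. So the sign of the linc medians turned with the scaling, but they stayed below those of all rows. In the IP over rows that averaged at least 50 counts 7 of 18 were lower and 3 higher, against 125 and 181 of 519 rows. linc-25, picked after its values were seen and so given without a p, was lower in both with TMM. Its log2 differences were -4.18 in IP and -3.34 in input. linc-29, likewise picked and given without a p, was the most abundant of these linc genes in adults and had 0.56 in the IP. In adults 18 of 54 were higher and 17 lower in nip2nip3, against 21.9% and 21.3% of all rows. In nip3_qe17 20 were higher and 18 lower, against 17.8% and 19.1%. Their medians of 0.13 and 0.17 became -0.18 and -0.10 with library totals.

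Loci listed as ERGO-1 targets, at which 26G-RNAs trigger 22G-RNA synthesis, were measured for 13 of 23 names. In nipnip2 9 of 13 were lower in input and 12 of 13 in IP, against 5.1% and 23.4% of all rows. None was higher by edgeR, and the medians were -1.18 and -2.33. In the IP over rows that averaged at least 50 counts 5 of 13 were lower and 2 higher, with a median of -0.55. Over all 519 such rows 125 were lower and 181 higher, with a median of 0.06. C44B11.6 had log2 changes of -2.93 and -3.63 (edgeR adjusted p = 0.00049 and 7.5e-40), and H09G03.1 of -2.26 and -3.19 (edgeR adjusted p = 0.012 and 9.1e-20). Over rows that averaged at least 50 counts their IP values were only -1.87 and -1.43 (edgeR adjusted p = 0.0015 and 0.0090). B0250.8, another of the 13, was higher there, at 2.16 (edgeR adjusted p = 0.00080). E01G4.5 had -1.30 in the IP, but 0.62 with library totals and 0.47 over rows that averaged at least 50 counts. It was also named for its high wt IP level, where it ranked 4, so no p is given. With library totals 6 of the 13 were lower and 1 higher in input, and 5 lower and 4 higher in IP, with medians of -0.62 and -0.42. Over all rows that scaling called 290 lower and 1458 higher of 8505 in input, and 149 lower and 2027 higher of 2619 in IP. The medians of all rows were 0.58 and 2.09. With microRNA scaling the medians of the 13 were 0.32 and -0.28, so the sign in input turned, against 1.53 and 2.33 over all rows. The summed share of the 13 was 7.08% and 7.77% of wt IP and 10.3% and 8.62% of nipnip2 IP. Without E01G4.5 the other 12 held 3.48% and 4.08% in wt and 4.21% and 3.53% in nipnip2, which overlapped. In adults 7 of 13 were higher and 2 lower in nip2nip3, and 6 and 2 in nip3_qe17, against the shares of all rows given above. Their medians of 0.50 and 0.34 were -0.04 and -0.13 with microRNA scaling.

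For genes of the pathway itself, the TMM calls of small RNA in embryos stand beside 6.38% of all rows called in input and 33.4% in IP. The lists are small, so these TMM counts in embryos cannot be set apart from those shares. Of the nuclear RNAi genes, which include nrde-3 itself, its partner nrde-2 and the germline Argonaute hrde-1, 0 of 5 tested were called in input and 0 of 3 in IP by edgeR. The log2 differences at nrde-3 were 0.26 (edgeR adjusted p = 0.62) and -0.29 (edgeR adjusted p = 0.48), and at hrde-1 0.42 (edgeR adjusted p = 0.25) and 0.96 (edgeR adjusted p = 0.059). With library totals 3 of 5 and 3 of 3 were called higher, and with microRNA scaling 4 of 5 and 3 of 3. Over all rows library totals called 1458 of 8505 higher in input and 2027 of 2619 in IP, and microRNA scaling called 6954 and 1972. Most rows were thus called higher in the IP under both scalings, and in input with microRNA scaling. Among genes needed for 26G-RNAs 0 of 10 were called in input, and among those needed to make 22G-RNAs 0 of 12. With microRNA scaling 9 of 10 and 12 of 12 were called higher, and with library totals 0 and 2, again beside those counts of all rows. In the IP 2 of 7 in each list were higher, against 10% of all rows. With library totals and with microRNA scaling all 7 of each list were higher there, as were most of all rows. The 4 called with TMM included ergo-1 at 1.65 (edgeR adjusted p = 0.019) and the exonuclease gene eri-1 at 2.34 (edgeR adjusted p = 0.014). The others were the mutator focus scaffold gene mut-16 at 1.74 and the exonuclease gene mut-7 at 1.69. Both were picked after their values were seen, so no p is given for them. In adults 8 of 12 synthesis genes were lower in nip2nip3 and 7 of 12 in nip3_qe17, against 21.3% and 19.1% of all rows. None was higher, with medians of -0.47 and -0.36 that stayed negative under each scaling. Among them rde-11 had -1.24 and -1.48 (edgeR adjusted p = 3.4e-05 and 1.1e-05). Of 6 tested nuclear RNAi genes, 3 were lower and 0 higher in nip2nip3, and 2 lower and 1 higher in nip3_qe17, against those same shares. hrde-1 had -0.43 and -0.34 (edgeR adjusted p = 0.0076 and 0.027).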

How the data were processed

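Members and gene lists were chosen with earlier results of these data known. Per the submitters' processing notes, reads were trimmed with cutadapt, aligned with STAR to ce11 and counted with featureCounts, and DESeq2 was used; versions and strand are not given in the sources used here. Values in the embryo tables are whole counts, unscaled as deposited. The adult table holds estimated counts as deposited, with fractions in 19.8% of values (all 16 of the 2 loci), rounded here before testing. A row of the embryo tables named for a piRNA sensor, which names no gene, was left out and held 0.0130 to 0.0320% of input and 0.000739 to 0.00357% of IP counts. Symbols matched 28876 of 31003 adult and 43720 of 46739 embryo rows. All 8 adult libraries were fitted together, embryo input and IP apart, and all 8 embryo libraries for the difference of changes, with edgeR 4.0.16 in R 4.3.3 (filterByExpr, TMM). The tests were checked on simulated counts drawn from a profile shared by all groups, with changes planted in some rows. That check does not cover a shift in composition between groups, so it says nothing about the choice of scaling. Alternatives were DESeq2 1.42.0, other scalings and filters, other sets of libraries, the replicate block, leaving out each library and, chosen after seeing the data, linc-11 without 21ur-8285. Named were, by rule, both loci, overlapping, flanking and next-ranked rows, the 5 most alike rows each, the nuclear RNAi and ERGO-1 lists and at most 3 genes of each other list by smallest p; linc-25, linc-29, linc-16, mut-7 and mut-16 were picked after their values were seen. Of the 23 ERGO-1 names, 13 matched. Whether replicate numbers pair the adult libraries could not be told (see the closing section).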

Additional observations from a re-analysis of the deposited data

How the results depend on the processing

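For the 2 loci, 171 of 188 alternative values over 12 results kept their direction and their side of the threshold, although the size could move. The 12 include the IP differences and the IP minus input differences, for which the threshold is no test because wt IP chose the loci. In the IP a mean of at least 50 counts took linc-22 from -2.64 to -0.88 and linc-11 from -2.71 to -0.94, and library totals took them to -0.74 and -0.80. In adults, microRNA scaling took linc-22 to 0.19 in nip2nip3 and 0.059 in nip3_qe17, and library totals took the latter to 0.26, all short of the threshold. linc-11 turned to -0.20 and -0.084 with library totals and to -0.43 and -0.28 with microRNA scaling. Leaving out a library gave 0.43 to 0.67 for linc-22 in nip3_qe17. In the IP, microRNA scaling took the 2 loci to -0.57 and -0.60. The IP change minus the input change turned with library totals (1.003 and 0.91), with microRNA scaling (0.25 and 0.15), and over left-out libraries (-0.53 to 0.33 for linc-22, -0.76 to 0.064 for linc-11). As a log2 value, IP over input was 5.89 and 6.90 in wt and 5.66 and 6.59 in nipnip2 with TMM (linc-22, then linc-11), against 0.83, 1.85, 1.83 and 2.76 by share, and with microRNA scaling -0.51, 0.49, -0.26 and 0.64. Leaving out small structural RNA rows from the total gave adult shares of 0.913, 1.30 and 1.15% for linc-22 and 0.183, 0.170 and 0.181% for linc-11 (wt, nip2nip3, nip3_qe17), 12.6% for linc-22 in wt IP and 1.63% for linc-11 in nipnip2 IP. The causes were not tested beyond the scaling itself.

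Called rows moved by over 1.5 times from 7163 to 4508 (nip2nip3) and from 6135 to 3935 (nip3_qe17) with a mean of at least 50 counts, which tests fewer rows. Leaving out a library gave 4435 to 7586 and 3820 to 6247, lowest without wt replicate 1 in both, and 372 to 657 between the mutants (695 with all). In input the 543 became 1748 with library totals, 7069 with microRNA scaling, 1022 without the filter, 258 with a mean of 50, 353 with DESeq2 and 609 to 826 with a library left out. In the IP the 876 became 2176, 2030 and 306 with library totals, microRNA scaling and a mean of 50. For the difference of changes the 81 became 1657, 1, 173 and 147 with library totals, microRNA scaling, DESeq2 and the shared column name as a replicate block, and 10 to 142 with a library left out. In adults, same-numbered libraries correlated at -0.03 to 0.31 in their deviations and others at -0.31 to 0.19. The ranges overlap and the highest values were between same-numbered libraries, so whether the numbers mark a shared batch cannot be stated. With the replicate block 6809, 5771 and 819 rows were called, linc-22 stood at 0.73 and 0.54, and no call at the 2 loci changed. No paired analysis was possible for input or IP alone because the columns carry other numbers than the labels. With n = 2 to 3, spread and not depth limits precision.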
